A study of Capra hircus with 6 samples.

Results

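Fatty acids, acyl-CoA esters, sterols and phospholipids dissolve poorly in water, and cells carry them on binding proteins. The genes described here encode 6 such carriers, looked up by gene name: the fatty acid-binding proteins FABP3, FABP4 and FABP5, the acyl-CoA-binding protein DBI, the sterol carrier protein SCP2 and the phospholipid transfer protein PLTP. Among 27271 genes in the deposited tables, 5 of the 6 names were found, and all 5 had at least 1 read. FABP5 was not found under its name. The 2 genes whose description reads fatty acid-binding protein 5 had 0 reads in every library, which allows up to 3 reads in each. Of the 5 genes found, 4 passed the filter on low counts and FABP4 did not.

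As background, FABPs are small cytosolic proteins that hold a fatty acid inside a beta-barrel. FABP3 is the form of heart and skeletal muscle, FABP4 is a classic product of differentiating adipocytes, and FABP5 is the epidermal form, also made in macrophages. DBI holds medium- and long-chain acyl-CoA esters for the enzymes that elongate, esterify or oxidize them. SCP2 encodes a peroxisomal thiolase of branched-chain fatty acid and bile acid metabolism and, from a second promoter, the small sterol carrier protein alone. PLTP is secreted and moves phospholipid between lipoproteins. LIPG, the gene targeted here, encodes endothelial lipase, which releases fatty acids from the phospholipids of high-density lipoprotein.

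Primary intramuscular preadipocytes, the fat precursors lying between muscle fibres, had been isolated from the longissimus dorsi of 3-day-old Jianzhou goats. They were transfected with control siRNA in the NC groups (n = 3, genotype WT) or siRNA to LIPG in the Si-LIPG groups (n = 3, labelled as a knockdown), and in both then induced to differentiate in medium with oleic acid. Knockdown by siRNA is transient and partial and leaves the gene intact. How many animals gave cells to a library, and whether the libraries came from separate isolations, was not given in the sources used here. The comparison asks how RNA levels differ when LIPG is silenced. LIPG itself had 0, 2 and 0 reads in NC 1, 2 and 3 and 0, 2 and 2 reads in Si-LIPG 1, 2 and 3, so the knockdown could not be checked at this depth. Every direction below therefore rests on the group labels as deposited, and a swap of the groups in the labels cannot be told apart from the change described. The study's balance of genes higher and lower is reversed relative to these labels, as given below with FABP3.

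The libraries held 36451898 to 52638817 reads, of which 91.6 to 93.7% fell on no annotated gene and only 524776 to 1051230 were counted on genes. The share of reads on genes was 0.997, 1.41 and 1.53% in NC 1, 2 and 3 and 1.80, 2.63 and 2.88% in Si-LIPG 1, 2 and 3, so it separated the groups. The mitochondrial gene ND6, which lies on the opposite strand to the other 12 mitochondrial protein genes, had 22.6 to 99.3 times their median reads per kb. Even counts were in excess: of genes with reads, 58.3 to 64.3% had an even count, and in each library more genes had 2 reads (757 to 1368) than 1 (584 to 830) or 3 (257 to 363). Fewer fragments than reads may therefore lie behind a count, in which case the intervals below are too narrow. The part of these features in the results below was not tested, except where a value is given. In bulk RNA, fewer cells of a type and less RNA per cell cannot be told apart.

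The 5 genes together took 0.00725 to 0.0121% of the reads on genes in a library. Their total reads over the 6 libraries were 169 for SCP2, 142 for FABP3, 83 for PLTP, 60 for DBI and 16 for FABP4, so counting error is wide for each. The plot of counts by library shows these reads with their intervals.

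**Figure D1:**
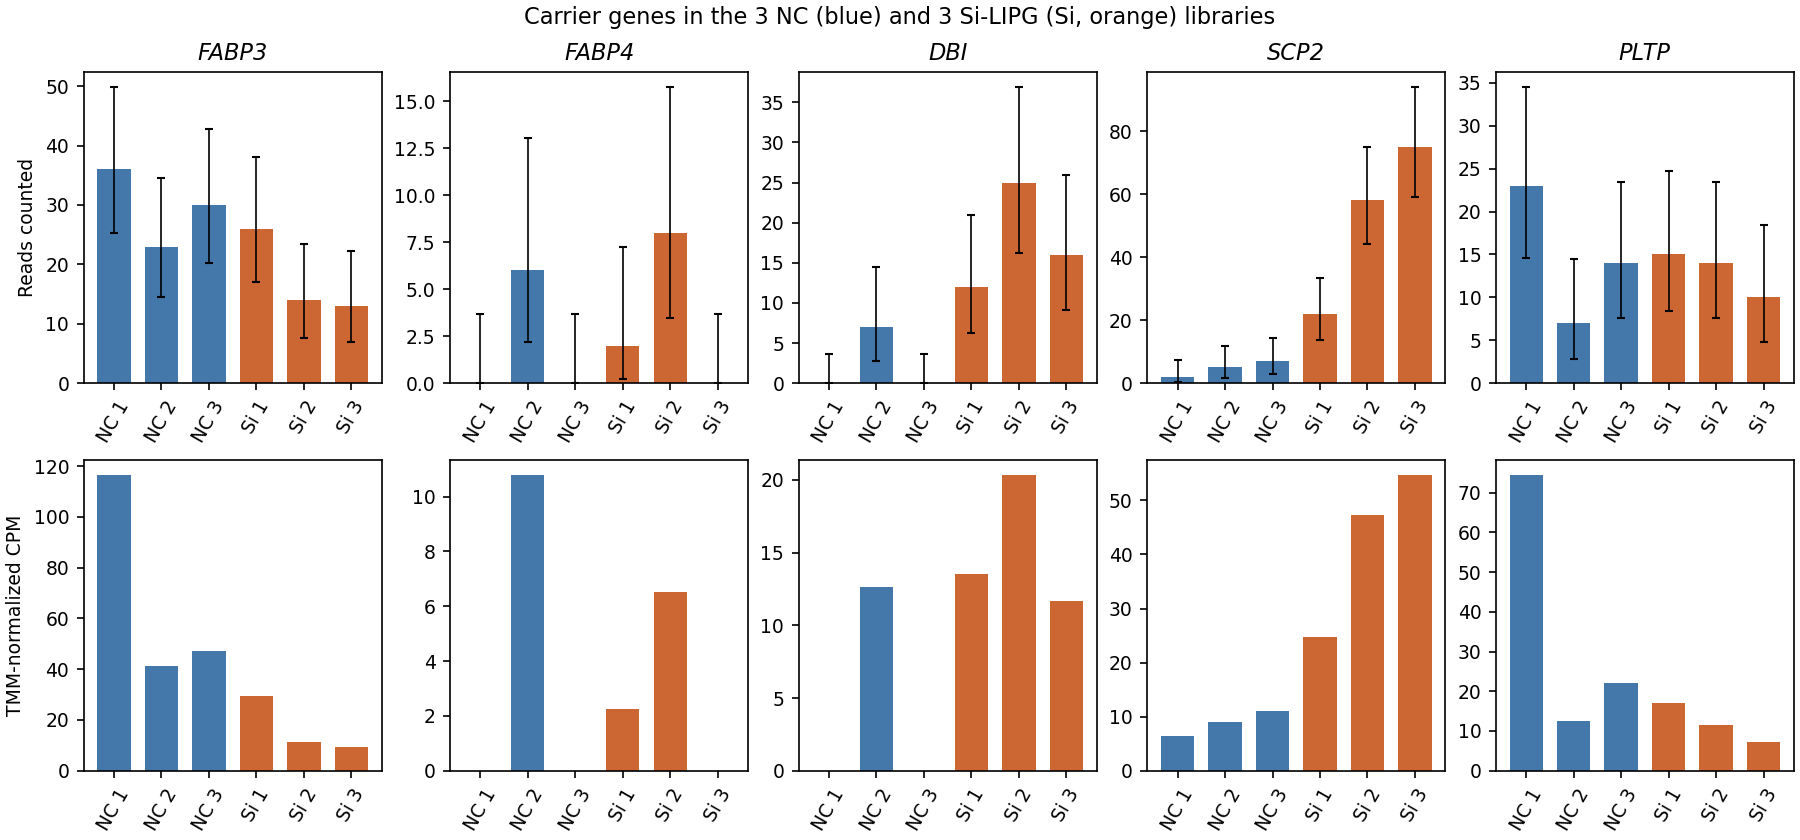
Reads counted on each carrier gene in the 3 NC and 3 Si-LIPG libraries, with 95% Poisson intervals (counting error only). SCP2 goes from 2, 5 and 7 reads in NC to 22, 58 and 75 reads in Si-LIPG, while FABP3 is between 23 and 36 reads in NC and between 13 and 26 reads in Si-LIPG.

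Levels of different genes were compared on the deposited FPKM values, which divide reads by gene length and by the reads on genes. FABP3 had the highest mean, 85.5 ± 51.7 FPKM (SD, n = 6), above 87.6% of tested genes. DBI followed with 41.8 ± 37.0 FPKM, then SCP2 with 10.3 ± 9.96, PLTP with 9.59 ± 6.19 and FABP4 with 8.53 ± 11.3. Neighbours in this order overlapped over the 6 libraries of both groups together, where differences between the groups add to the spread. Within NC, FABP3 (95.0 to 171 FPKM) did not overlap DBI (0 to 44.0), and PLTP (5.74 to 21.6) lay above SCP2 (1.32 to 3.45). Within Si-LIPG, DBI (52.6 to 96.4) did not overlap SCP2 (8.82 to 24.7), which lay above PLTP (4.70 to 8.56). The other neighbours overlapped within each group. FABP3 was the highest of the 5 in NC 1, 2 and 3 and in Si-LIPG 1, whereas DBI was the highest in Si-LIPG 2 and 3. On reads per kb scaled to all reads of the library, PLTP and FABP4 changed places at the bottom of the order.

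**Figure D2:**
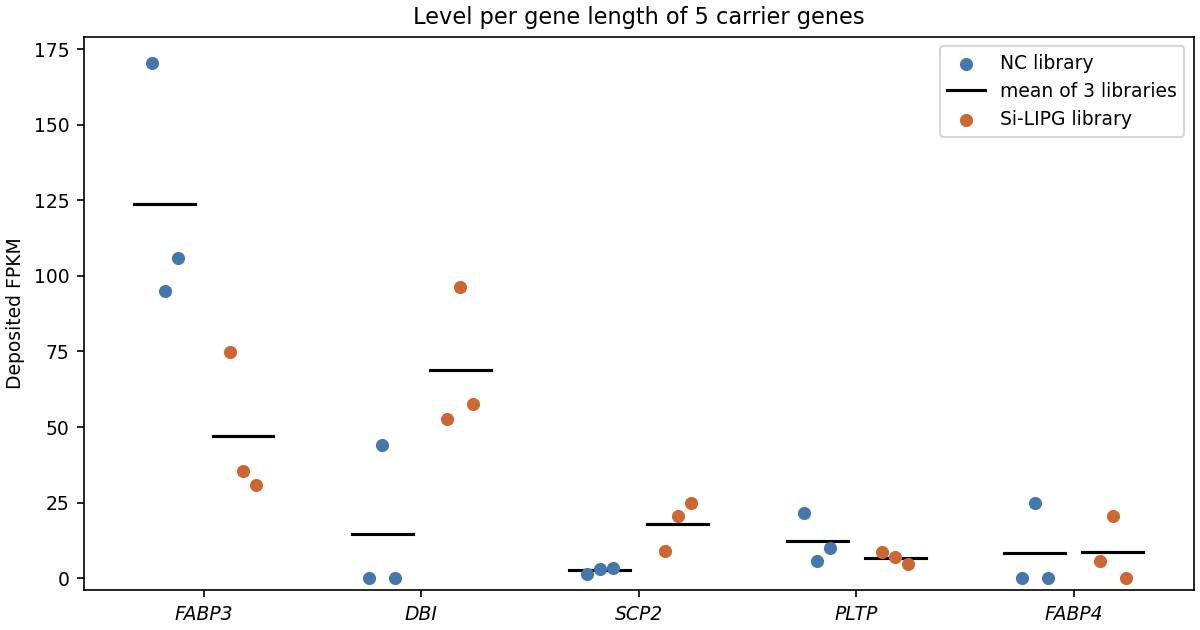
Deposited FPKM of the 5 carrier genes in each library. FABP3 has the highest mean, 124 FPKM in NC against 47.0 in Si-LIPG, and DBI has a mean of 14.7 in NC against 68.9 in Si-LIPG.

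SCP2 (ENSCHIG00000005658), the thiolase and sterol carrier, had 2, 5 and 7 reads in NC 1, 2 and 3 and 22, 58 and 75 in Si-LIPG 1, 2 and 3. The 95% Poisson interval of the lowest count was 0.242 to 7.22 reads and that of the highest 59.0 to 94.0. CPM, reads relative to the library's total, were scaled by TMM, a method that sets most genes equal between libraries, and the levels were 6.48, 9.01 and 11.0 in NC and 24.8, 47.3 and 54.8 in Si-LIPG. Every Si-LIPG library was above every NC library, with means of 8.84 ± 2.28 and 42.3 ± 15.6 (SD, n = 3 each). SCP2 rose by a log2 fold change of 2.20 ± 0.61 (SE), a fold of 4.6, with an adjusted p of 0.0452 in edgeR's quasi-likelihood test.

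This made SCP2 the 112th highest of 6574 tested genes by fold change, and the only one of the 4 tested carriers called at an adjusted p under 0.05. SCP2 and DBI had at most 7 reads in an NC library and passed the filter on low counts only through Si-LIPG, where they were higher. With no filter the adjusted p of SCP2 in edgeR was 0.0315. Of the 6574 genes, 428 were called (6.51%), 64 of them higher in Si-LIPG (0.974%) and 364 lower (5.54%). The call was close to the threshold. In fits without 1 library the log2 fold change stayed between 1.98 and 2.40, but the adjusted p was 0.105 without NC 1, 0.0859 without NC 2, 0.0612 without NC 3, 0.25 without Si-LIPG 2 and 0.286 without Si-LIPG 3, and 0.0331 without Si-LIPG 1. The levels of SCP2 also put the 6 libraries in exactly the order of their share of reads on genes, within groups too. Of all tested genes, 46 (0.7%) did so on TMM-scaled CPM, and 894 (13.6%), SCP2 among them, on CPM over all reads. With that share added to the model the log2 fold change was 0.95 ± 1.03 (SE), with an adjusted p of 1.00 in edgeR. Since the share separates the groups, the 2 cannot be told apart in that fit, which called 0 of all tested genes, with 134 at an unadjusted p under 0.05.

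FABP3 (ENSCHIG00000014068), the fatty acid carrier of muscle, had 36, 23 and 30 reads in NC 1, 2 and 3 and 26, 14 and 13 in Si-LIPG 1, 2 and 3. Its TMM-scaled CPM values were 116.7, 41.4 and 47.3 in NC and 29.3, 11.4 and 9.5 in Si-LIPG. The groups did not overlap, with means of 68.5 ± 41.9 and 16.7 ± 11.0 (SD, n = 3 each), and NC 1 stood far above NC 2 and 3. The log2 fold change was -2.02 ± 0.58 (SE), or 4.05-fold lower, and the adjusted p of 0.0513 in edgeR missed the threshold. FABP3 did meet the study's own criterion, an unadjusted p under 0.05 with a fold over 1.5, at an unadjusted p of 0.00342 in edgeR.

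By that criterion 2 of the 4 tested carriers differed, SCP2 higher and FABP3 lower, against 20.7% of all tested genes (7.83% higher and 12.9% lower). The study itself reports more genes higher than lower after knockdown, the opposite balance. DESeq2 on all libraries here gave 1695 genes at an unadjusted p under 0.05. With the fold threshold added, 629 were higher in Si-LIPG and 1064 lower. The study names the same tool, and its total is the same. Its number of higher genes equals the number found lower here. The study's contrast and the deposited labels may thus run in opposite directions, and which of them is reversed was not tested. On TMM-scaled values 2 of the 4 tested carriers had groups that did not overlap, against 28.7% of all tested genes. Without NC 1 the log2 fold change of FABP3 was -1.45, and its adjusted p in edgeR was 0.0121 without Si-LIPG 1, 0.0481 without NC 3 and 0.0622 to 0.266 without each of the other libraries. In the fit with the share of reads on genes, subject to the same limit, it was -0.0574, with an SE of 0.93. The size of the difference depended on the scaling. In CPM over all reads of the library, FABP3 was at 0.684, 0.540 and 0.651 in NC and 0.541, 0.375 and 0.357 in Si-LIPG. There the groups overlapped, with means of 0.625 ± 0.0753 and 0.424 ± 0.102 and an exact permutation p of 0.2 (two-sided, n = 3 each, smallest possible p 0.1).

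PLTP (ENSCHIG00000021164), the secreted phospholipid carrier, had 23, 7 and 14 reads in NC 1, 2 and 3 and 15, 14 and 10 in Si-LIPG 1, 2 and 3. Its TMM-scaled values were 74.6, 12.6 and 22.1 CPM in NC and 16.9, 11.4 and 7.30 in Si-LIPG. NC 1 was again the highest, NC 2 lay within the Si-LIPG range, and the log2 fold change of -1.56 ± 0.74 (SE) had an adjusted p of 0.25 in edgeR. Without NC 1 it was -0.58, and with scaling to all reads it was 0.0801. CTSA, the gene of the lysosomal protease cathepsin A, overlaps PLTP in RefSeq's annotation of ARS1.2, a goat genome assembly. CTSA had 6, 35 and 25 reads in NC and 28, 73 and 67 in Si-LIPG, with a log2 fold change of 0.17 ± 0.48 (SE) and an adjusted p of 0.891 in edgeR. The strand setting of the counting is not given in the sources used here, so reads of overlapping genes cannot be told apart.

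DBI (ENSCHIG00000015289), the acyl-CoA carrier, had 0, 7 and 0 reads in NC 1, 2 and 3 and 12, 25 and 16 in Si-LIPG 1, 2 and 3. A count of 0 allows up to 3 reads. TMM-scaled values were 0, 12.6 and 0 CPM in NC and 13.5, 20.4 and 11.7 in Si-LIPG, so NC 2 lay within the Si-LIPG range. The log2 fold change of 1.71 ± 1.12 (SE) had an adjusted p of 0.428 in edgeR, and without NC 2, which held all 7 NC reads, the fitted value was 6.77, which stands against libraries at 0 and is no bound. In CPM over all reads the groups did not overlap, at 0.0548 in NC against 0.453 in Si-LIPG on average (exact permutation p = 0.1, two-sided, n = 3 each, the smallest possible). C2H2orf76 overlaps DBI in RefSeq, and LOC108637396 overlaps FABP3, with ZCCHC17 lying 679 bases from it. None of these 3 neighbours was found by name in the tables.

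FABP4 (ENSCHIG00000008262), the adipocyte form, had 0, 6 and 0 reads in NC 1, 2 and 3 and 2, 8 and 0 in Si-LIPG 1, 2 and 3. Its TMM-scaled means were 3.6 ± 6.24 and 2.93 ± 3.31 CPM (SD, n = 3 each), with an exact permutation p of 1.0 (two-sided). Both groups held libraries with no read, and no difference was detectable at this depth. FABP4 and SCP2 have no annotated neighbour within 5 kb in RefSeq. The other named FABP genes were also near or at 0. FABP1, FABP9 and FABP12 had 0 reads in every library, FABP6 had 1 read in NC 1 and FABP7 had 8 reads in NC 2 only. FABP2, the intestinal form, had 6 reads, all in Si-LIPG 2.

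The scaling of the libraries shifted all 4 tested carriers with the bulk of genes. The median log2 fold change over all tested genes was 0.16 with TMM, 0.71 with library sizes alone and 1.58 with scaling to all reads, where 3030 genes met the study's criterion as higher (46.1%) and 2 as lower (0.0304%), against 515 and 846 with TMM. Relative to that median, SCP2 was at 2.04, 2.06 and 2.12 under the 3 scalings, and FABP3 was at -2.18, -2.11 and -2.14. PLTP was at -1.72, -1.57 and -1.5 relative to the median and DBI at 1.55, 1.48 and 1.45. These scalings differ only by a factor per library, so the distance of each gene from the bulk of genes could hardly move. The sign of PLTP and the size of the other changes did move. With the share of reads on genes in the model, subject to the limit given for SCP2, the distances did move. They were then 0.911 for SCP2, -0.0921 for FABP3, 0.401 for PLTP and 1.36 for DBI. With scaling to all reads, SCP2 rose by a log2 fold change of 3.70 with an adjusted p of 0.0462 in edgeR, where 750 genes had an adjusted p under 0.05 (11.4%). FABP3 was then at -0.55 (adjusted p = 0.479), DBI at 3.04 (adjusted p = 0.0917) and PLTP at 0.0801 (adjusted p = 0.933). On this scale 2 of the 4 carriers, SCP2 and DBI, had groups that did not overlap, against 53% of all tested genes.

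**Figure D3:**
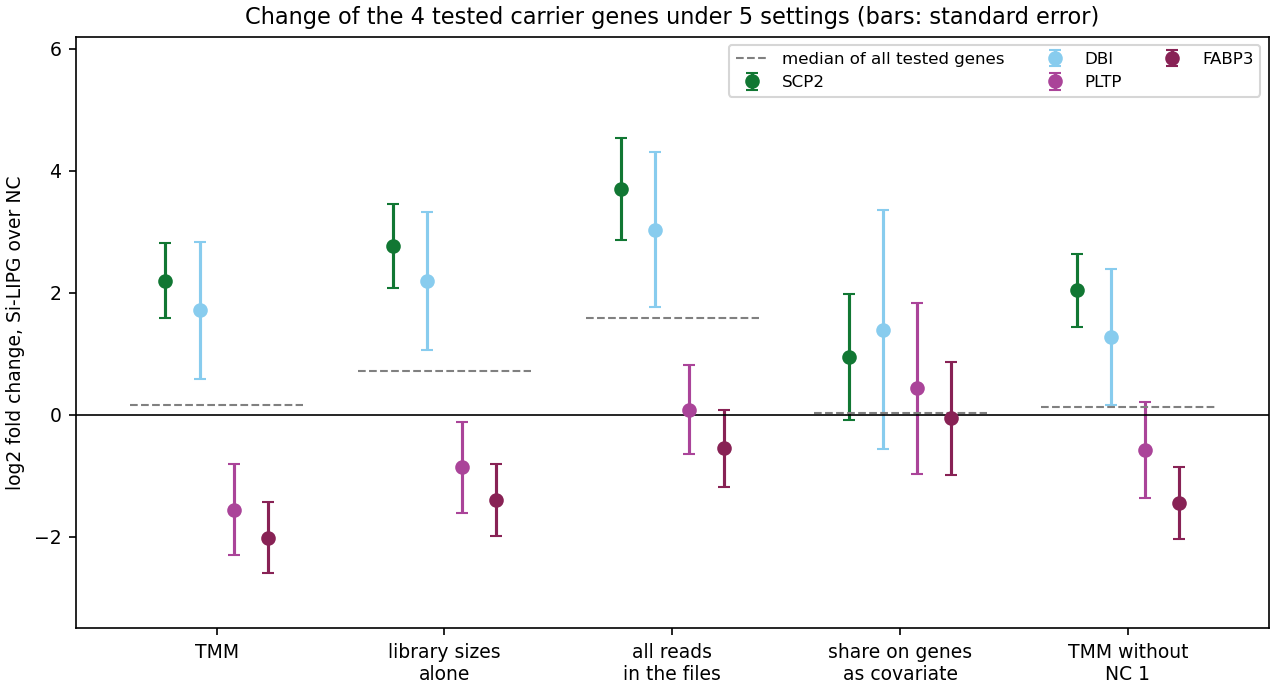
Change of the 4 tested carriers as log2 of Si-LIPG over NC, 1 point per gene and fit. The fits shown are TMM, library sizes alone, scaling to all reads, the share of reads on genes in the model, and TMM without NC 1. SCP2 stays above 0 and FABP3 below 0 in these fits, with FABP3 at -0.0574 (SE 0.93) with the share in the model. PLTP crosses to 0.0801 with scaling to all reads and to 0.44 with the share of reads on genes in the model.

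Ratios between carriers within a library do not depend on the scaling of libraries. FABP3 over PLTP was the pair with more than 3 reads of both genes in every library. The log2 ratio of its counts was 0.64, 1.65 and 1.07 in NC and 0.77, 0 and 0.36 in Si-LIPG. The groups overlapped, and the difference of -0.74 had an exact permutation p of 0.2 (two-sided, n = 3 each). SCP2 was set against the others after its counts had been seen, so those ratios are given without a test. Reads of SCP2 per read of FABP3 were 0.0556, 0.217 and 0.233 in NC and 0.846, 4.14 and 5.77 in Si-LIPG. In NC the muscle fatty acid carrier thus had more reads than SCP2 in every library, and in Si-LIPG 2 and 3 it had fewer. These reads are not divided by gene length, 402 bases for FABP3 and 2885 for SCP2. In FPKM, FABP3 stayed above SCP2 in every library, at 35.4 against 20.5 in Si-LIPG 2 and 30.8 against 24.7 in Si-LIPG 3. Reads of SCP2 per read of PLTP were 0.0870, 0.714 and 0.50 in NC and 1.47, 4.14 and 7.50 in Si-LIPG. Neither ratio with SCP2 overlapped between the groups. With TMM, SCP2 was higher and FABP3 and PLTP were lower in Si-LIPG, so these ratios largely repeat the changes of the single genes. The share of all gene pairs without overlap was not computed.

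**Figure D4:**
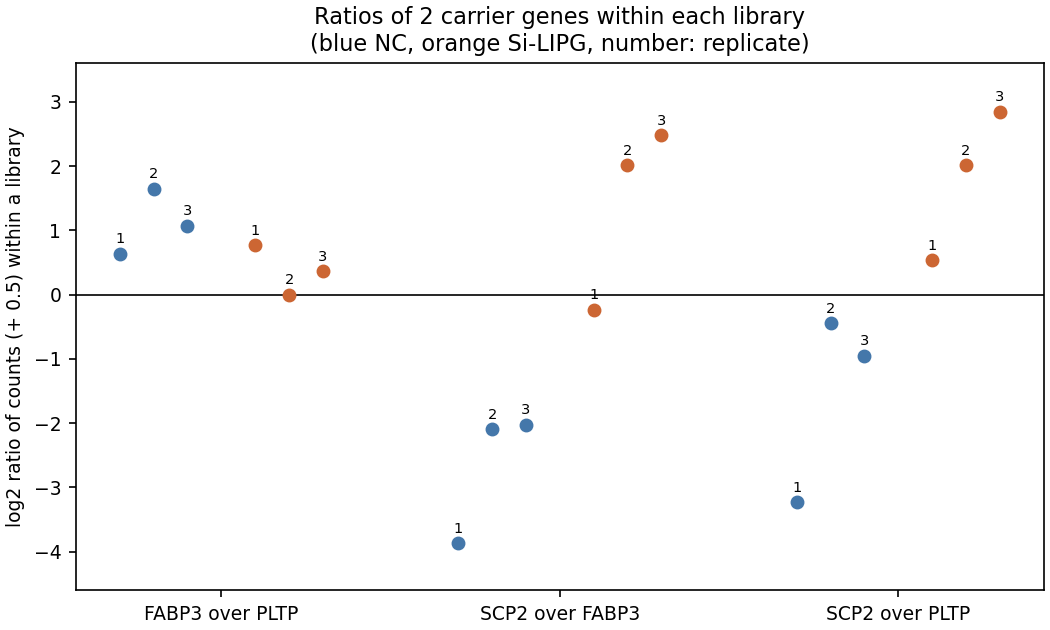
Log2 ratio of the reads of 2 carriers within each library (counts + 0.5). SCP2 over FABP3 runs from -3.87 to -2.02 in NC and from -0.24 to 2.48 in Si-LIPG, while FABP3 over PLTP overlaps between the groups.

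Among 1589 named genes averaging at least 50 reads, the TMM-scaled profile of FABP3 over the 6 libraries was most like those of ACSBG1, a very-long-chain acyl-CoA synthetase, PGAM2, the muscle phosphoglycerate mutase, and ABCC3, an organic anion exporter. Pearson's r was 0.9999, 0.9998 and 0.9995 over 6 libraries that share their depth and scaling, and 24.4% of those genes had an r above 0.9 with FABP3. For SCP2 the closest were CLMP, an adhesion molecule (0.984), TMED10, a cargo receptor of the early secretory pathway (0.983), and the mitochondrially encoded COX1 (0.979), with 5.35% above 0.9. PLTP was most like TXNDC17 (0.995), GAPDHS (0.994) and IMP4 (0.985), and DBI most like PABPC1 (0.990), EFTUD2 (0.988) and IQGAP1 (0.985). Between the carriers, r was -0.956 for FABP3 with SCP2 and 0.901 for FABP3 with PLTP.

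The lists of relatives that follow are short, and their counts are to be read against the 6.51% of all tested genes with an adjusted p under 0.05 and the 20.7% that met the study's criterion. At those shares, no gene passing among 2 to 5 says nothing particular about a list. Of 13 further intracellular lipid-binding proteins, 12 were found, 5 had reads and 2 were tested. Neither passed a test, and the retinoic acid carrier CRABP2 had a log2 fold change of 0.08 (adjusted p = 0.958 in edgeR). Of 6 further acyl-CoA-binding domain proteins 3 were tested and 0 passed either rule. ACBD3 of the Golgi was at 0.27 and ACBD5, a tether of peroxisomes to the endoplasmic reticulum, at 0.59. ECI2, a peroxisomal enoyl-CoA isomerase, was at 1.47 ± 0.85 (SE, adjusted p = 0.359 in edgeR), with 2, 5 and 2 reads in NC and 12, 24 and 25 in Si-LIPG. Its TMM-scaled groups did not overlap, as in 28.7% of all tested genes. Both tested proteins with an SCP2-like domain were peroxisomal: HSDL2 met the study's criterion, and HSD17B4, the D-bifunctional enzyme, was at 0.12. HSDL2 had 10, 11 and 4 reads in NC and 43, 51 and 58 in Si-LIPG, with a log2 fold change of 1.26 ± 0.58 (SE) and an adjusted p of 0.233 in edgeR.

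The peroxisomal partners of SCP2 had reads for all 13 genes of the list, and 5 were tested. 0 passed either rule, with values from -0.81 for the thiolase ACAA1, through -0.17 for PHYH, which starts phytanic acid breakdown, to 0.71 for ACOX3. The median of the 5 was 0.53, against 0.16 over all tested genes. Of the 16 genes of the PLTP family and of lipoprotein handling, 14 were found, 8 had reads and 5 were tested. 0 passed either rule. The lipoprotein receptor LRP1 was at 0.52 and apolipoprotein E (APOE) at 0.01, and lipoprotein lipase (LPL) had 0 reads in every library.

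Phospholipid and sterol transfer proteins formed the longest list, with 29 of 36 genes found and 20 tested. The median log2 fold change was 0.52, and 14 of the 20 were above 0. The ceramide carrier CERT1 fell, with 624, 597 and 492 reads in NC and 539, 512 and 427 in Si-LIPG, a log2 fold change of -1.53 ± 0.40 (SE) and an adjusted p of 0.0400 in edgeR. With scaling to all reads its change was 0.00345, where the median of all tested genes was 1.58. By the study's criterion 3 were higher: the phosphatidylcholine carrier STARD7 (1.28 ± 0.51), and the oxysterol-binding protein relatives OSBPL6 (1.64 ± 0.71) and OSBPL10 (1.66 ± 0.75), with SE after each value. Their adjusted p in edgeR was 0.151, 0.193 and 0.220. With CERT1, 4 of the 20 met the study's criterion and 1 was called at an adjusted p under 0.05, near the 20.7% and 6.51% of all tested genes. The most abundant of the list were the lysosomal PSAP and NPC2, at 0.04 and 0.62.

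In fatty acid uptake, 8 of 11 genes had reads and 3 were tested. The caveolar protein CAV2 had 0, 4 and 3 reads in NC and 12, 62 and 44 in Si-LIPG. Its log2 fold change of 2.81 ± 0.85 (SE) met the study's criterion, with an adjusted p of 0.0614 in edgeR. Its partner CAV1 was at 0.83 and GOT2, also known as a plasma membrane fatty acid-binding protein, at 0.07. The fatty acid translocase CD36 had 0 reads in every library.

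**Figure D5:**
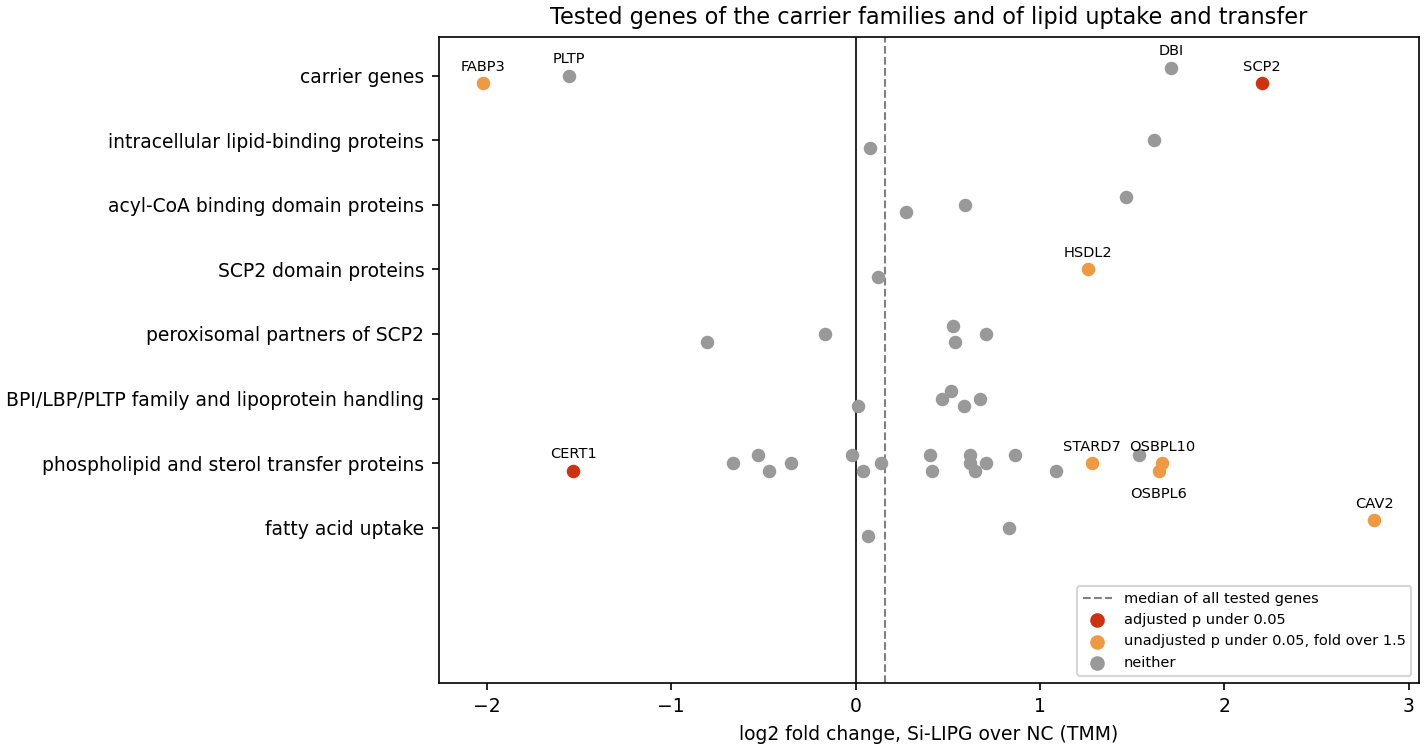
Change under TMM scaling, as log2 of Si-LIPG over NC, in every tested gene of the carrier families and of lipid uptake and transfer, 1 point per gene, colored by the test passed. The dashed line is the median of all tested genes, 0.16, and SCP2 and CERT1 are the 2 genes with an adjusted p under 0.05.

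The label of the cells was checked against marker genes, since FABP3 is also made in muscle and FABP4 in adipocytes, endothelium and macrophages. Of 13 mesenchymal and preadipocyte markers 11 were found and 10 had reads, with DLK1 at 0 in every library. Summed FPKM of the list was 3353 to 7062 in NC and 9975 to 10667 in Si-LIPG, without overlap. COL1A1 and COL1A2, the type I collagen chains, led the list, and with TMM they were at 0.28 and 0.32 (adjusted p = 0.732 and 0.691 in edgeR). On TMM-scaled values COL1A1 overlapped between the groups and COL1A2 did not, as in 28.7% of all tested genes. FPKM is not TMM-scaled, and the median change over all tested genes was 0.76 on log2(FPKM + 1). Of its 10 tested genes LUM rose, at a log2 fold change of 1.71 and an adjusted p of 0.0395 in edgeR, while DCN at 0.87 (adjusted p = 0.228) and ENG at -1.07 (adjusted p = 0.0844) met the study's criterion alone. ENG was at 0.44 with scaling to all reads.

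Of 10 mature adipocyte markers 9 had reads, with summed FPKM of 41.0 to 81.0 in NC and 47.6 to 50.4 in Si-LIPG. ADIPOQ had 4 reads in Si-LIPG 2 and 0 elsewhere. Both tested markers of this list were below 0. PNPLA2, the triglyceride lipase, fell by 1.28 on the log2 scale with an adjusted p of 0.0400 in edgeR, and CIDEA was at -0.95. With scaling to all reads the change of PNPLA2 was 0.13. By RT-qPCR the study reports a rise of PNPLA2, under the name ATGL, after knockdown, and a fall of FABP3. Muscle markers summed to 46.5 to 139 FPKM in NC and 119 to 133 in Si-LIPG, with 10 of 13 genes having reads. Of the 4 tested muscle markers 0 passed either rule, against 6.51% and 20.7% of all tested genes. Embryonic myosin heavy chain (MYH3) was at -0.17, TNNT3 at -0.33 and DES at 0.01. MYOD1 was at 0.89 (adjusted p = 0.388 in edgeR). Its TMM-scaled groups did not overlap, as in 28.7% of all tested genes. Endothelial markers summed to 0 to 2.87 FPKM with 5 of 8 at 0 in every library, CDH5, TEK and KDR among them. Macrophage and leukocyte markers summed to 20.1 to 33.1 FPKM, with PTPRC, ITGAM, C1QA and C1QB of the 9 at 0. CSF1R, CD14 and CD68 had reads in every library, 53, 37 and 34 in total. AIF1 had 23 and CD163 had 14, and no gene of this list passed the filter on low counts. The part of these cell types in the values of FABP3, FABP4 and PLTP was not tested.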

How the data were processed

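Poly(A) RNA was sequenced in 3 NC and 3 Si-LIPG libraries, with dUTP marking of 1 cDNA strand. Groups and replicates were taken from the sample titles. The authors deposited counts, whole numbers of reads per gene and library for 27271 genes, not normalized, with 5 further rows for reads on no gene, which made up all but 0.997 to 2.88% of reads and were excluded from library sizes and from the main test. The authors deposited FPKM values of the same genes in 1 table, with a name for 18989 of them. The submitters' processing notes name fastp, HISAT2, SAMtools and HTSeq. Versions, genome build and strand setting are not given in the sources used here, and counting with the wrong strand or counting both mates of a pair would change every value.

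Members were matched by name in the FPKM table and by Ensembl identifier in the counts. Genes kept by filterByExpr (6574) were scaled by TMM and tested with edgeR 4.0.16 (quasi-likelihood, no covariates) in R 4.3.3, with Benjamini-Hochberg adjustment over all tested genes at 0.05. The study's criterion was counted beside it. Alternatives used DESeq2 1.42.0, limma 3.58.1 on log2(FPKM + 1) and log2(FPKM + 0.1), other scalings, filters and covariates, and leaving out each library. Log2 CPM for profile likeness used a prior count of 2, and ratios used counts + 0.5. Poisson intervals (95%) and the floor of 3 counts cover counting error only. The study describes its replicates as biological. Since separate cultures or animals are not named for these libraries, p-values measure the spread between the 3 libraries of a group.

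The genes described, the gene lists and the tests were chosen with earlier results of these data known. From each list the genes with an adjusted p under 0.05, those at the study's criterion and the 2 tested genes of highest mean FPKM were named, with annotated genes within 5 kb of a member and the 3 genes most like each tested member. 1 gene that the rule names is not reported here. A few others were named after their values were seen (genes at 0 reads, ACOX3, ECI2, DES, MYOD1). Replicates differed by more than counting noise (chi-square over its degrees of freedom, 4.34 to 16.6), so none was counted as a copy. The fits were tested on simulated data. Neighbours came from RefSeq (ARS1.2), without coordinates, since the build of the files is not known. No genome or protein sequence was used here.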

Additional observations from a re-analysis of the deposited data

How the results depend on the processing

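SCP2 kept its direction in every fit that tested it (with at least 10 counts in every sample it was dropped), but its call at an adjusted p under 0.05 was lost with DESeq2 size factors in edgeR (log2 fold change 2.16), limma on log2(FPKM + 0.1) (2.75), limma on log2(FPKM + 1) (2.36), a covariate for the share of reads on genes (0.95) and a length correction chosen after seeing the data (1.99), and it ranged from 1.98 to 2.40 without 1 library. FABP3 kept its direction and passed with at least 10 counts in every sample (-1.73), DESeq2 (-2.02), no filter (-1.89), upper quartile factors (-1.95) and counts halved, also chosen after seeing the data (-1.97), ranging from -2.68 to -1.45 without 1 library. PLTP reversed with scaling to all reads (0.0801) and with the covariate (0.44). DBI kept its direction and had an adjusted p under 0.05 in no fit that gave one. It met the study's criterion with scaling to all reads, in both limma fits and without NC 2, had no adjusted p in DESeq2, and was dropped by the filter with at least 10 counts and without Si-LIPG 2 or 3. FABP4 failed the filter. The ratio of FABP3 over PLTP kept its direction. The cause of these changes was not tested.

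Of the tested carriers, 0 had an adjusted p under 0.05 with DESeq2 size factors, the length correction, both limma fits and the covariate, 2 with DESeq2, no filter, upper quartile factors and halved counts, and 0 to 2 without 1 library. At the study's criterion 1 passed with at least 10 counts in every sample, where FABP3 was the 1 carrier tested, 0 with the covariate and 2 to 4 without 1 library. Over all genes, calls at an adjusted p under 0.05 were 714 with at least 10 counts, 750 with scaling to all reads, 100 with library sizes alone, 0 with each limma fit and 0 with the covariate in edgeR, where an unadjusted p under 0.05 was reached by 1671, 1912 and 134 genes, and 0 to 648 without 1 library. They were 0 in edgeR without NC 1, NC 2, Si-LIPG 2 or Si-LIPG 3, with 1307, 1616, 888 and 871 genes at an unadjusted p under 0.05, against 620 adjusted calls by DESeq2 on all libraries. At the study's criterion there were 3032 with scaling to all reads, 2044 with no filter, 134 with the covariate and 871 to 1692 without 1 library.

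Same-numbered libraries of the groups correlated at 0.210, 0.0639 and 0.105. The value of 0.210 was the highest between any NC and any Si-LIPG library, and NC 3 also correlated best with its same-numbered library. NC 2 instead correlated best with Si-LIPG 3 (0.0890). These values are low and mixed, so they cannot decide whether same-numbered libraries were paired. With the replicate number as a block, FABP3 was at -2.04 with an adjusted p of 0.00335 in edgeR, 2 carriers and 925 genes had an adjusted p under 0.05, and SCP2 kept its call. Depth limits all 5 genes, none of which had more than 75 reads in a library.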
